A study of Homo sapiens with 6 samples.

Results

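The 43 genes described here encode integrin subunits, laminin chains, type IV and XVII collagens, nidogens, perlecan and agrin. They were taken by gene symbol, not by a rule on their values, from a table of 26475 genes. The list was chosen with earlier results of these data known. It comprises 21 integrin subunits, 11 laminin chains and 11 collagen, nidogen and proteoglycan genes. Messenger RNA was sequenced from 3 human lung cancer lines, PC9, PC9-BrM4 and PC9-AMG, with 2 libraries of each and all of them cultured in MGS. PC9 cells come from an EGFR-mutant adenocarcinoma of the lung, and PC9-BrM4 and PC9-AMG are derived from them. What BrM4, AMG and MGS stand for is not spelled out in the labels, which list the culture, common to the 3 lines, as the only condition. From what is known of the work, the MGS culture pairs cancer cells with glia on a soft gel. How the derivatives were made, and whether each is a single clone, was not stated in the sources used here.

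Integrins are receptors made of 1 alpha and 1 beta subunit that bind matrix proteins outside the cell and the actin or keratin cytoskeleton inside it. Laminins, each assembled from an alpha, a beta and a gamma chain, form 1 network of the basement membrane and type IV collagen forms another, with nidogens, perlecan and agrin joining them. In epithelia, ITGA6 with ITGB4 and the transmembrane collagen COL17A1 anchor cells to laminin in hemidesmosomes.

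Values are TPM, a share of the library's transcripts scaled by gene length. As a share, each value depends on the other transcripts of its library. The balance of higher and lower calls between lines changed with the scaling, as given below. Differences are on the log2(TPM + 1) scale with their standard error (SE), and a gene was called, and is said to have risen or fallen, at an adjusted p under 0.05 over the 14627 genes tested with limma. Whether the 2 libraries of each line came from separate cultures is not stated, so p-values measure the spread between libraries, which may be technical. Read counts were not used here, so the sequencing depth of a library is not known. At 1 TPM the median coverage was between 0.606 and 0.822 reads per base. Between 13848 and 14171 genes reached 1 TPM in a library. Of the epithelial markers, KRT8 was at 2798 to 3346 TPM and EPCAM at 634 to 856 TPM in all 6 libraries. The lung lineage genes NKX2-1 (0 to 0.28 TPM) and SFTPB (listed at 0) were absent or nearly so. Of the 7 epithelial markers tested, 0 rose and 3 fell in PC9-BrM4 against PC9 (KRT7 -0.63, KRT18 -0.61 and KRT19 -0.47). EPCAM (0.28, adjusted p = 0.0535) and CDH1 (0.38, adjusted p = 0.0711) were above PC9 without being called. KRT8 (-0.18) and NAPSA (-0.40) were below it, also without being called. In PC9-AMG 0 rose and 2 fell. Of all tested genes, 6.45% fell in PC9-BrM4 and 3.82% in PC9-AMG. In bulk RNA, fewer cells expressing a gene and less of its RNA per cell cannot be told apart.

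Of the 43 genes, 29 passed the filter of 1 TPM in at least 2 libraries and were tested. The other 14 stayed below 1 TPM in every library, with a highest value of 0.872 TPM, for ITGA7. Among them were the nidogens NID1 and NID2, which link laminin to type IV collagen, and LAMC3. ITGA8 and LAMA1 were listed at 0 in all 6 libraries. ITGA4, ITGA9, ITGA10, ITGA11, ITGB3, LAMA2, LAMB4 and COL4A2 complete the 14. The libraries listed between 26 and 29 of the 43 genes at 1 TPM or more, with the fewest, 26, in both PC9-BrM4 libraries.

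The upstream sequences of 4 genes whose transcripts differed between lines, and the stretch between the start sites of COL4A1 and COL4A2, are shown because the results below turn on these genes; which start sites were used in these cells was not measured. They are RefSeq sequences of build GRCh38.p14, each read 5′ to 3′ on the strand of its gene, and run over the 250 bases before the RefSeq start nearest to the gene's start in the deposited tables. Capitals mark matches, on either strand, to 4 motifs. The first was TGANTCA, the letters bound by AP-1 factors such as JUN and FOS in many enhancers. The second was GGAATG, bound by TEAD factors, the partners of YAP in the nucleus. The third was GGGCGG, bound by SP1 in many GC-rich promoters. The last was TATAAA, the TATA box, which sets the start of transcription at a minority of promoters.
ITGB5, chr3:124887366-124887615, minus strand: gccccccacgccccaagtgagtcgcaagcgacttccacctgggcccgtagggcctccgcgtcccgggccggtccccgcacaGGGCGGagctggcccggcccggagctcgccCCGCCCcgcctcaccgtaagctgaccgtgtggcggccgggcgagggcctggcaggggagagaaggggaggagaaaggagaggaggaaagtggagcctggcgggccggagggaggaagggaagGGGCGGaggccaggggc
ITGB8, chr7:20330650-20330899, plus strand: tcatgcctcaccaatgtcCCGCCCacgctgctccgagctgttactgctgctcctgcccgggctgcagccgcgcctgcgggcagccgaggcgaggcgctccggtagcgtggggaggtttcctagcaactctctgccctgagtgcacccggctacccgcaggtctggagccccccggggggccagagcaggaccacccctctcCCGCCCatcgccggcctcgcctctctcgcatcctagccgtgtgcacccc
COL17A1, chr10:104085881-104086130, minus strand: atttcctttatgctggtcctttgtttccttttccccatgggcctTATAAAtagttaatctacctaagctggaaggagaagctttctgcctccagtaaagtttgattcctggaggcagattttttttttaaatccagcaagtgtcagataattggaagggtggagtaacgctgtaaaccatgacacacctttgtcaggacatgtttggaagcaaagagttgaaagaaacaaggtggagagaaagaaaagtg
LAMA3, chr18:23872770-23873019, plus strand: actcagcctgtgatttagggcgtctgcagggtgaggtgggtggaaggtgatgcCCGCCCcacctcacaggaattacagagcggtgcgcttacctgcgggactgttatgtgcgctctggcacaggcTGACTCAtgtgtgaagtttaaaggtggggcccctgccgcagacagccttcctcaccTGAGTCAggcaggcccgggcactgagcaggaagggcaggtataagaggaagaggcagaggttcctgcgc
COL4A1 to COL4A2, chr13:110307158-110307283, plus strand: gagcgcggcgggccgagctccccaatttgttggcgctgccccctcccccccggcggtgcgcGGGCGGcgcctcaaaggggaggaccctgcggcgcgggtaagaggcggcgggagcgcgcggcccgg

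The upstream stretches were unlike one another. Those of ITGB5 and ITGB8 were GC-rich (75.2% and 71.2%) with 23 and 21 CpG dinucleotides, against medians of 58.0% and 11 CpG over the 35116 RefSeq promoters of the same length. The COL17A1 stretch had 40.4% GC, 1 CpG and the TATA box letters, which 10.7% of all promoters hold. These letters lie toward the end of the stretch farthest from the start site, and whether they act as a TATA box was not tested. LAMA3 has its nearest RefSeq start 183577 bases downstream of the long gene model's first base, and the 250 bases before it hold the AP-1 letters at 2 places. Of the 25 tested genes with a listed promoter, 1 (LAMA3) held the AP-1 letters in the nearest one, 2 (ITGA5 and ITGB1) the TEAD letters and 15 the SP1 letters, against 6.6%, 11.9% and 42.6% of all promoters. These matches describe the letters in these windows only.

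Among the integrin subunits, the most abundant by the mean of the 6 libraries were the beta subunits ITGB1 and ITGB4 and the laminin-binding alpha subunits ITGA3 and ITGA6. In PC9-BrM4 the mean of ITGB5 (293 TPM) was above those of ITGA3 (269 TPM) and ITGA6 (260 TPM). ITGB1, the common partner of most alpha subunits, was at 469 and 460 TPM in PC9, 607 and 475 TPM in PC9-BrM4, and 346 and 407 TPM in PC9-AMG. ITGB4, which pairs with ITGA6 alone, was at 434 and 470 TPM in PC9, 367 and 309 TPM in PC9-BrM4 and 425 and 281 TPM in PC9-AMG. All libraries of both derivatives were below PC9 for ITGB4, yet the differences were not called (-0.42 and -0.39 on the log2 scale, SE 0.165, adjusted p = 0.113 and 0.18). In PC9-BrM4, ITGB4 was called lower with a replicate block (adjusted p = 0.0447), in a fit of the 4 libraries alone (0.0316) and with length and GC trends removed (0.0300). In PC9-AMG it was -0.68 without library 1 (adjusted p = 0.0436) and -0.088 without library 2 (0.705). ITGA3, a laminin receptor subunit, was at 256 and 267 TPM in PC9, 287 and 252 TPM in PC9-BrM4 and 263 and 206 TPM in PC9-AMG, and the lines overlapped. ITGA6 was at 241 and 229 TPM in PC9, 299 and 221 TPM in PC9-BrM4 and 175 and 190 TPM in PC9-AMG, so that both PC9-AMG libraries lay below PC9 and the PC9-BrM4 libraries lay on either side of it. In PC9 the order of these 4 was ITGB1 and ITGB4, whose libraries overlapped, then ITGA3, then ITGA6. The TPM of ITGB4 relative to ITGA6 within a library was 1.8 and 2.05 in PC9, 1.23 and 1.40 in PC9-BrM4, and 2.42 and 1.48 in PC9-AMG; this ratio was not tested.

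**Figure D1:**
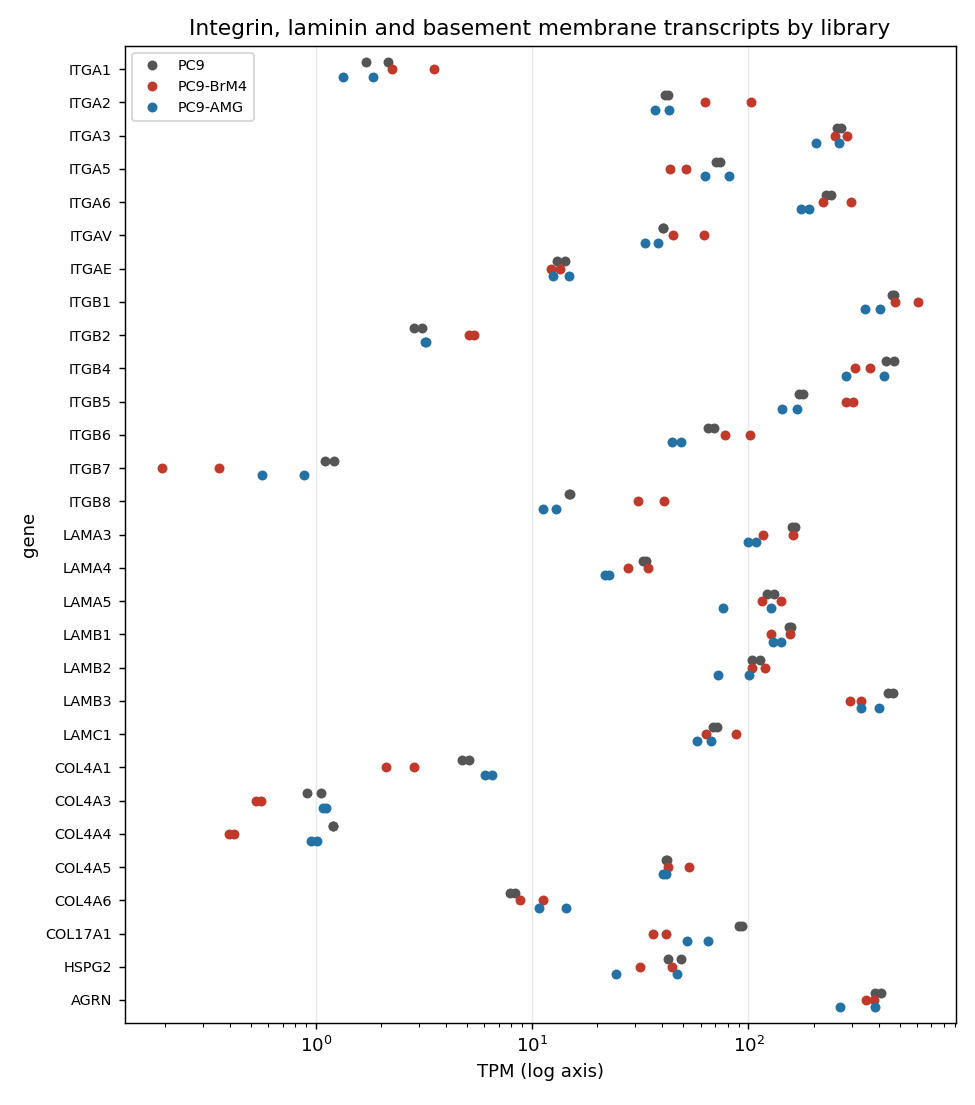
TPM (log axis) of the 29 tested integrin, laminin and basement membrane genes, 1 point per library and 2 libraries per line. ITGB1, ITGB4, LAMB3 and AGRN lie at the right with 265 to 607 TPM, and the PC9-BrM4 points of ITGB8, ITGB5 and ITGA2 lie to the right of all others of those genes.

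The first comparison set PC9-BrM4 beside its parent line under a shared culture. In PC9-BrM4, 4 integrin subunits rose (ITGB8, ITGA2, ITGB5 and ITGB2), and ITGA5, LAMB3, COL17A1 and COL4A1 fell. These are 8 of the 29 tested genes (27.6%), against 16.3% of all tested genes, of which 9.89% rose and 6.45% fell. Among genes with a mean of at least 10 TPM the shares were 6 of 23 members and 17.7% of 9178 genes. The median difference of the 29 genes was 0.017, close to that of all tested genes (0.0869). The libraries of the lines did not overlap for 19 of the 29 (65.5%), against 61.2% of all tested genes. No test compared these shares. Median centring, which moved the median of all tested genes to -0.0166, gave 917 higher and 1293 lower calls over all genes in place of 1446 and 943, and 3 higher and 4 lower among the 29. Quantile normalization gave 1088 and 1253 over all genes. The PC9-BrM4 libraries differed from each other with transcript length (Spearman -0.468 across 13713 genes, library 2 minus library 1) and GC content (0.328). Of the 29 genes, 28 were lower in PC9-BrM4 library 2 than in library 1, with a median of -0.295 against -0.106 over all tested genes. The part of this in the differences from PC9 was not tested gene by gene. With both trends removed all 8 calls were kept. So were 2366 of the 2389 calls over all genes, so this does not set the 8 apart.

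ITGB8, a beta subunit that pairs with ITGAV and binds the latent form of TGF-beta, was at 14.9 and 14.7 TPM in PC9, 40.7 and 30.7 TPM in PC9-BrM4 and 11.2 and 12.9 TPM in PC9-AMG. The PC9-BrM4 libraries stood apart from the other 4, at 2.41 times the PC9 mean (log2 difference 1.20, SE 0.159, adjusted p = 0.000956). ITGB5, another ITGAV partner and a receptor for vitronectin, was at 171 and 179 TPM in PC9 and at 304 and 282 TPM in PC9-BrM4. It rose 1.67 times over PC9 (0.74, SE 0.0991, adjusted p = 0.00102), and its PC9-AMG libraries, at 167 and 144 TPM, lay below PC9. The calls of ITGB5 and ITGB8 in PC9-BrM4 held in all 17 alternative fits, with adjusted p up to 0.0249 and 0.0146. ITGB8 lies on chromosome 7 (hg38, 20331102 to 20415759) and ITGB5 on chromosome 3 (124761949 to 124887305).

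The third ITGAV partner of epithelia, ITGB6, which activates latent TGF-beta, was at 69.2 and 64.7 TPM in PC9, 101 and 77.9 TPM in PC9-BrM4 and 44.4 and 48.9 TPM in PC9-AMG. Its PC9-BrM4 values were above PC9 without being called (0.41, SE 0.134, adjusted p = 0.0686), and were 0.59 without PC9-BrM4 library 2 (adjusted p = 0.0306) and 0.22 without library 1 (0.290). ITGB6 was also called with a filter at 5 TPM (0.0393), robust moderation (0.0484) and length and GC trends removed (0.0213). ITGAV itself, the shared alpha subunit, was at 40.4 and 40.2 TPM in PC9, 62.0 and 44.5 TPM in PC9-BrM4 and 33.1 and 38.1 TPM in PC9-AMG. It was not called in either derivative against PC9 (adjusted p = 0.134 and 0.513), and the PC9-BrM4 difference of 0.38 was 0.61 without its library 2 (adjusted p = 0.0365) and 0.14 without its library 1 (0.526). With length and GC trends removed ITGAV was called in PC9-BrM4 (0.0296). Within a library, the TPM of ITGB8 relative to ITGAV was 0.369 and 0.366 in PC9, 0.657 and 0.689 in PC9-BrM4 and 0.339 in both PC9-AMG libraries. For ITGB6 the same ratio was 1.71 and 1.61, 1.64 and 1.75, and 1.34 and 1.29 in the same order of lines. ITGB3, the remaining partner, did not exceed 0.695 TPM.

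**Figure D2:**
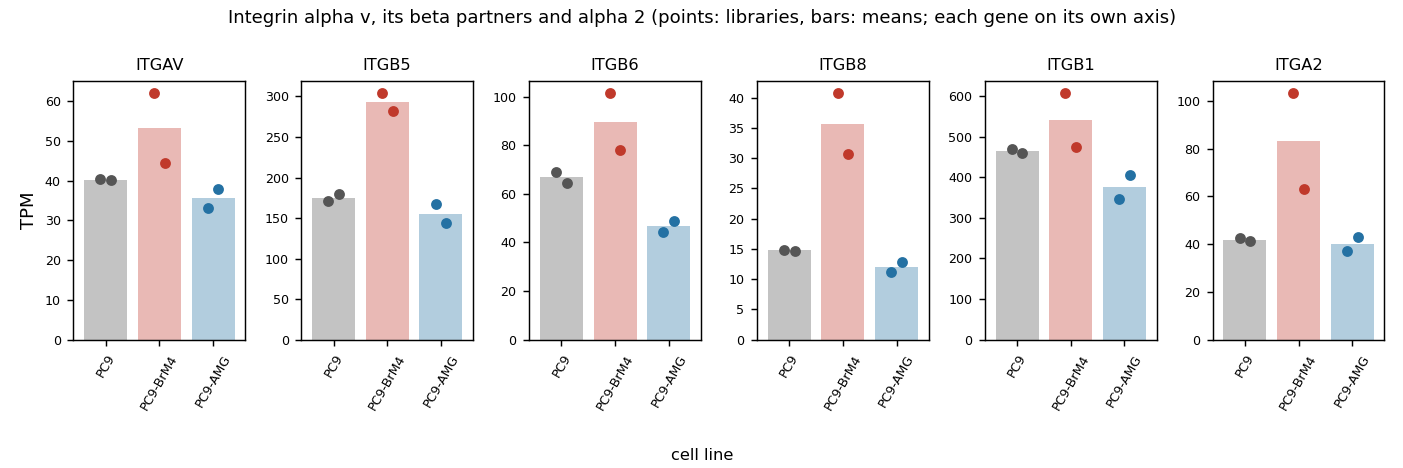
TPM of ITGAV, its beta partners and ITGA2, each gene on its own axis from 0, with points for the 2 libraries and bars for the mean of each line. For ITGAV, ITGB5, ITGB6, ITGB8 and ITGB1, both PC9-BrM4 libraries lie above and both PC9-AMG libraries below the PC9 libraries.

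ITGA2, the alpha subunit of a collagen and laminin receptor formed with ITGB1, was at 42.4 and 41.3 TPM in PC9, 103 and 62.9 TPM in PC9-BrM4 and 36.9 and 42.8 TPM in PC9-AMG. The PC9-BrM4 libraries were both higher than the rest but differed from each other (83.0 ± 28.5 TPM, mean ± SD, n = 2, against 41.8 ± 0.786 TPM in PC9). The rise was called (0.93, SE 0.194, adjusted p = 0.0109) and the call was lost when no filter on low genes was used (0.0658). Without PC9-BrM4 library 1 the difference was 0.58 (adjusted p = 0.0497). ITGA1, its neighbour on chromosome 5 and another collagen receptor subunit, was low, at 1.33 to 3.5 TPM, and was not called in any comparison. ITGA5, the fibronectin receptor subunit, moved the other way. It stood at 70.9 and 73.6 TPM in PC9 and at 51.3 and 43.2 TPM in PC9-BrM4, while PC9-AMG (81.0 and 62.7 TPM) overlapped PC9. The fall in PC9-BrM4 (-0.61, SE 0.139, adjusted p = 0.0168) lost its call on omission of PC9 library 1 (adjusted p = 0.0761), PC9 library 2 (0.105), PC9-BrM4 library 1 (0.0507) or PC9-BrM4 library 2 (0.105). ITGA5 lies on chromosome 12 (54395261 to 54419266), where the 205 other tested genes within 10 Mb had a median difference of -0.37 in PC9-BrM4; 22.4% of them were lower than ITGA5. ITGB7, within the same stretch, was at 1.10 and 1.21 TPM in PC9 and 0.355 and 0.194 TPM in PC9-BrM4 (adjusted p = 0.077). The part of the stretch in the value of ITGA5 was not tested.

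ITGB2, the beta subunit of leukocyte integrins, was low in all lines, at 3.08 and 2.84 TPM in PC9, 5.36 and 5.11 TPM in PC9-BrM4 and 3.22 and 3.18 TPM in PC9-AMG. It rose in PC9-BrM4 (0.65, SE 0.183, adjusted p = 0.0372), a call lost with median centring (0.0531) and on omission of each of the 4 libraries (PC9 library 1, 0.167; PC9 library 2, 0.234; PC9-BrM4 library 1, 0.0960; PC9-BrM4 library 2, 0.0673). ITGAM, a leukocyte alpha partner of ITGB2 and a marker of microglia, was at 3.40 and 3.36 TPM in PC9, 8.54 and 6.57 TPM in PC9-BrM4 and 6.96 and 6.19 TPM in PC9-AMG. It was called higher in both derivatives (0.96 and 0.79, adjusted p = 0.00746 and 0.034). Of the 9 microglia and leukocyte markers, 3 reached 1 TPM, and AIF1, CX3CR1, P2RY12, TMEM119 and TYROBP were listed at 0 in all 6 libraries. Their summed level lay between 226 and 232 TPM in PC9, between 166 and 181 TPM in PC9-BrM4, and between 225 and 246 TPM in PC9-AMG, most of it CD68. ITGAE, a subunit of the receptor for E-cadherin on lymphocytes, was at 12.2 to 14.8 TPM with overlapping lines.

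Of the 11 laminin chains, 7 were tested and the other 4 stayed below 1 TPM; LAMB3 was the most abundant. This chain of the laminin bound by hemidesmosomes was at 443 and 468 TPM in PC9, 330 and 295 TPM in PC9-BrM4 and 401 and 331 TPM in PC9-AMG. Every derivative library lay below PC9. The fall was called in PC9-BrM4 (-0.54, SE 0.105, adjusted p = 0.00779) and not in PC9-AMG (-0.32, adjusted p = 0.0935), and LAMB3 was not called between the derivatives (0.22, adjusted p = 0.163). It was called higher in PC9-AMG than in PC9-BrM4 with median centring (0.40, adjusted p = 0.0383) or with length and GC trends removed (0.26, 0.0349), and lower in PC9-AMG than in PC9 with these trends removed (-0.30, 0.0314). The PC9-BrM4 call was lost without PC9 library 2 (0.0700) or PC9-BrM4 library 2 (0.0646). LAMB3 is on chromosome 1 (209614873 to 209652475).

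LAMA3, the alpha chain that assembles with LAMB3, was at 158 and 164 TPM in PC9, 160 and 116 TPM in PC9-BrM4 and 108 and 99.3 TPM in PC9-AMG. LAMA4, an alpha chain more typical of vessels and muscle, was at 32.6 and 33.7 TPM in PC9, 34.2 and 27.7 TPM in PC9-BrM4 and 22.6 and 21.6 TPM in PC9-AMG. For both genes the PC9-AMG libraries were the lowest of the 6 and the PC9-BrM4 libraries overlapped PC9 or straddled it. Both fell in PC9-AMG against PC9, LAMA3 by 0.63 (SE 0.138, adjusted p = 0.0267) and LAMA4 by 0.56 (SE 0.133, adjusted p = 0.0352). Neither call survived leaving out PC9 library 1 (0.120 and 0.205), PC9 library 2 (0.151 and 0.246), PC9-AMG library 1 (0.0879 and 0.0922) or PC9-AMG library 2 (0.142 and 0.130). The endothelial markers CLDN5 (listed at 0) and KDR (at most 0.22 TPM) were absent or nearly so, and the 6 endothelial markers summed to between 1.17 and 1.99 TPM in every library.

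The difference of LAMA3 between the derivatives was not called (-0.40, adjusted p = 0.0714). It was called with a filter at 5 TPM (0.0351), a replicate block (0.0419) or without PC9-BrM4 library 2 (-0.63, 0.0138), and without PC9-BrM4 library 1 LAMA3 was called lower in PC9-BrM4 than in PC9 (-0.46, 0.0446).

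LAMB1, LAMB2, LAMC1 and LAMA5 were not called in any comparison as fitted. LAMB1, a beta chain of the most widespread laminins, was at 154 and 157 TPM in PC9, 155 and 127 TPM in PC9-BrM4 and 141 and 130 TPM in PC9-AMG. LAMC1, their gamma chain, was at 68.9 and 71.5 TPM in PC9, 87.6 and 63.3 TPM in PC9-BrM4 and 66.8 and 57.9 TPM in PC9-AMG. LAMB2, another beta chain, was at 104 and 113 TPM in PC9, 120 and 104 TPM in PC9-BrM4 and 100 and 72.3 TPM in PC9-AMG. For LAMC1 and LAMB1 the PC9-BrM4 libraries differed more from each other than the line means did. LAMC1 was called lower in PC9-AMG than in PC9-BrM4 without PC9-BrM4 library 2 (-0.49, adjusted p = 0.0417). LAMB2 was called lower in the same comparison without PC9-AMG library 1 (-0.62, 0.0239) or with length and GC trends removed (-0.33, 0.0372). LAMA5, the main alpha chain of adult epithelial basement membranes, was at 122 and 131 TPM in PC9, 141 and 115 TPM in PC9-BrM4 and 128 and 76.6 TPM in PC9-AMG. In LAMA5 the PC9-AMG libraries differed from each other by more than the line means did. The same was seen for the proteoglycans agrin and perlecan, which bind laminin: AGRN was at 384 and 411, 381 and 351, and 385 and 265 TPM in PC9, PC9-BrM4 and PC9-AMG. HSPG2, the perlecan gene, was at 42.4 and 48.9, 44.1 and 31.6, and 46.5 and 24.4 TPM in the same order. These 3 transcripts have GC contents of 64.5% to 67.5%, and across 13713 genes the difference of PC9-AMG library 2 from library 1 fell with GC content (Spearman -0.537). Without PC9-AMG library 1, AGRN was called lower in PC9-AMG than in PC9 (-0.58, adjusted p = 0.0382) and, against PC9-BrM4, LAMA5 (-0.73, adjusted p = 0.0232) and AGRN (-0.46, 0.0262) were called lower. Without PC9-AMG library 2 the AGRN difference from PC9 was -0.044 and the LAMA5 difference from PC9-BrM4 was -0.00052.

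COL17A1, the transmembrane collagen of hemidesmosomes, fell in both derivatives. On the log2(TPM + 1) scale it fell by more than any other of the 29 genes in PC9-BrM4. In PC9-AMG it fell by about as much as LAMA3. As ratios of mean TPM in PC9-BrM4 to PC9, ITGB7 (0.238) and COL4A4 (0.338), near 1 TPM in PC9 and not called as reported, were lower still. COL17A1 was at 90.5 and 93.3 TPM in PC9, 41.5 and 36.2 TPM in PC9-BrM4 and 65.0 and 52.2 TPM in PC9-AMG. The 3 lines did not overlap, with PC9-BrM4 lowest. In PC9-BrM4 the mean was 0.423 times that of PC9 (-1.22, SE 0.129, adjusted p = 0.000234), a call that held in all 17 alternative fits. In PC9-AMG it was 0.638 times (-0.65, SE 0.129, adjusted p = 0.0198), a call lost without PC9 library 1 (0.121), PC9 library 2 (0.149) or PC9-AMG library 2 (0.0964). On chromosome 10 (104031288 to 104085880), none of the 128 other tested genes within 10 Mb was as low in PC9-BrM4, and their median difference was 0.125. The hemidesmosomal partners PLEC, DST and CD151 were not called in either derivative against PC9.

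**Figure D3:**
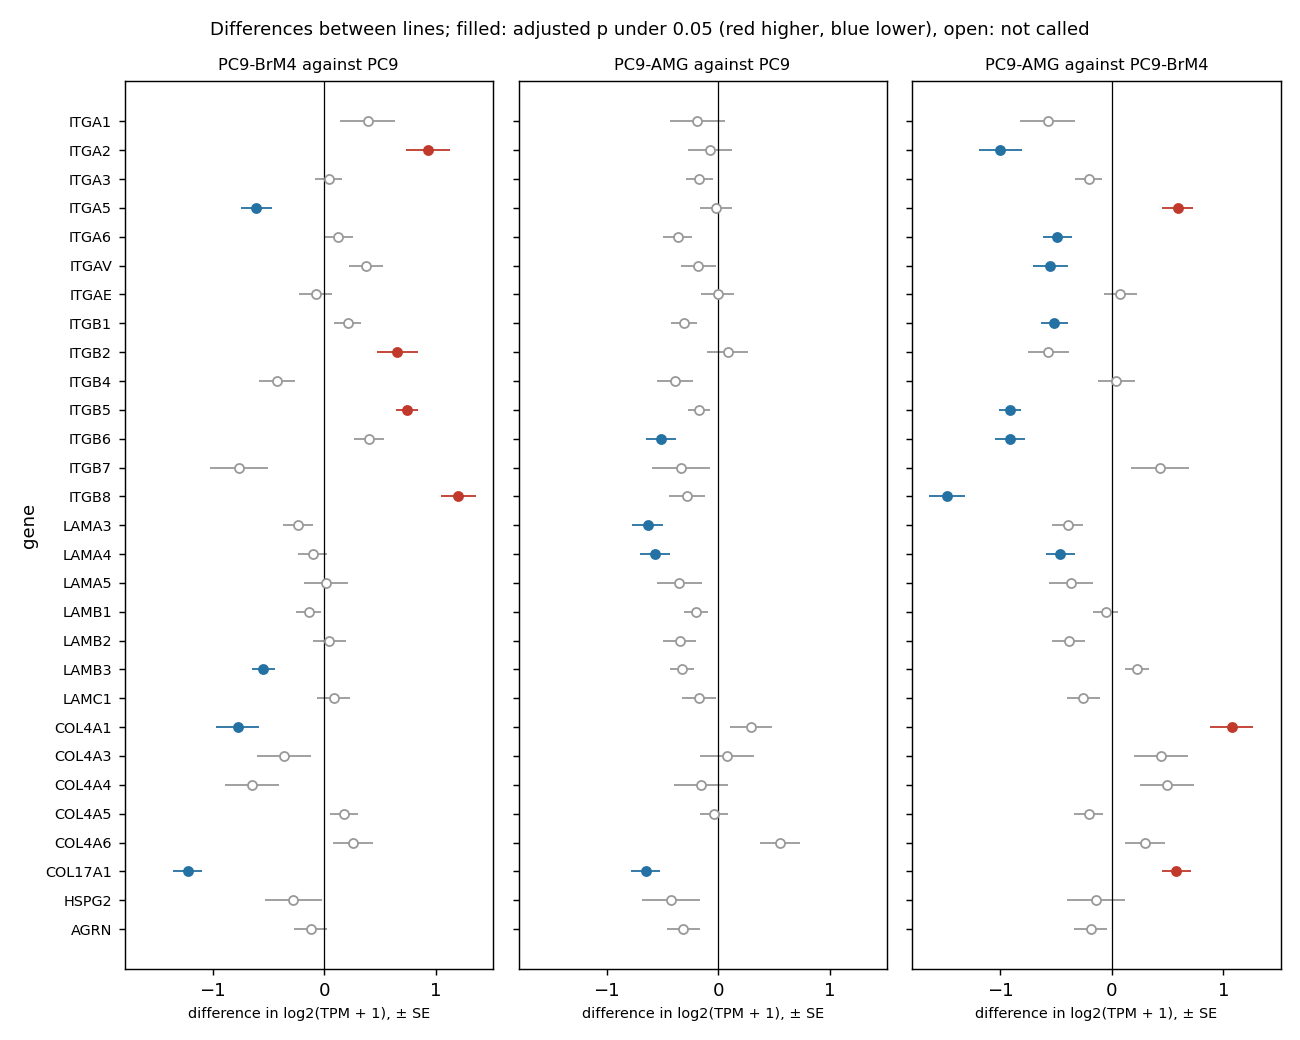
Differences in log2(TPM + 1) with their SE for the 29 tested genes in the 3 comparisons, filled where the adjusted p was under 0.05. COL17A1 is the lowest point in the panels of PC9-BrM4 (-1.22) and PC9-AMG (-0.65) against PC9, and ITGB8 is the highest in the first (1.20) and the lowest in the third panel (-1.48); the first and second panels share the PC9 libraries.

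The type IV collagen genes lie in 3 head-to-head pairs, each pair starting from neighbouring sites on opposite strands. In the deposited tables the 126 bases between the starts of COL4A1 and COL4A2 on chromosome 13 are those printed above, with 80.2% GC and 20 CpG dinucleotides. By the same deposited gene models, COL4A3 and COL4A4 on chromosome 2 are 5 bases apart. COL4A5 and COL4A6 on the X chromosome are 346 bases apart by these models. The RefSeq starts of COL4A3 and COL4A4, at bases 227164624 and 227164205, lie farther from each other than 5 bases. The members of the first pair were listed at very different levels. COL4A1, a chain of the common collagen IV network, was at 4.74 and 5.08 TPM in PC9, 2.85 and 2.1 TPM in PC9-BrM4 and 6.01 and 6.52 TPM in PC9-AMG. COL4A2, the chain that trimerizes with COL4A1, did not exceed 0.166 TPM, with a coverage of at most 0.105 reads per base. Whether the gene model or the assignment of reads lowers COL4A2 cannot be told from the deposited values. The ratio of COL4A1 to COL4A2, 17.2 to 306 within a library, divides by values near 0 and carries the same doubt.

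For COL4A1 the 3 lines did not overlap, and PC9-BrM4 was lowest. The fall from PC9 to PC9-BrM4 was called (-0.77, SE 0.191, adjusted p = 0.0228) but not without PC9 library 1 (0.111), PC9 library 2 (0.156) or PC9-BrM4 library 2 (0.0704). The difference of PC9-AMG from PC9 was not called (0.30, adjusted p = 0.363). COL4A3 and COL4A4, chains of the network of the lung alveolus and kidney, were near 1 TPM in PC9 (0.911 and 1.05, and 1.20 in both libraries) and PC9-AMG (1.08 and 1.11, and 1.01 and 0.944). In PC9-BrM4 they were at 0.553 and 0.527 TPM, and at 0.415 and 0.394 TPM, below all other libraries, and neither was called (adjusted p = 0.351 and 0.102), though COL4A4 was with no filter (0.0266) or no variance trend (0.0145).

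COL4A5 and COL4A6, chains found together in epithelial and smooth muscle basement membranes, were the most abundant of the 6. COL4A5 was at 42.1 and 41.6 TPM in PC9, 52.9 and 42.4 TPM in PC9-BrM4 and 41.5 and 40.2 TPM in PC9-AMG. COL4A6 was at 7.92 and 8.32 TPM in PC9, 11.2 and 8.80 TPM in PC9-BrM4 and 14.3 and 10.8 TPM in PC9-AMG. Both derivatives were above PC9 for COL4A6. The difference of PC9-AMG was not called (0.56, adjusted p = 0.0907), but passed the threshold with median centring (0.63, adjusted p = 0.0391) and with quantile normalization (0.64, adjusted p = 0.0356).

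**Figure D4:**
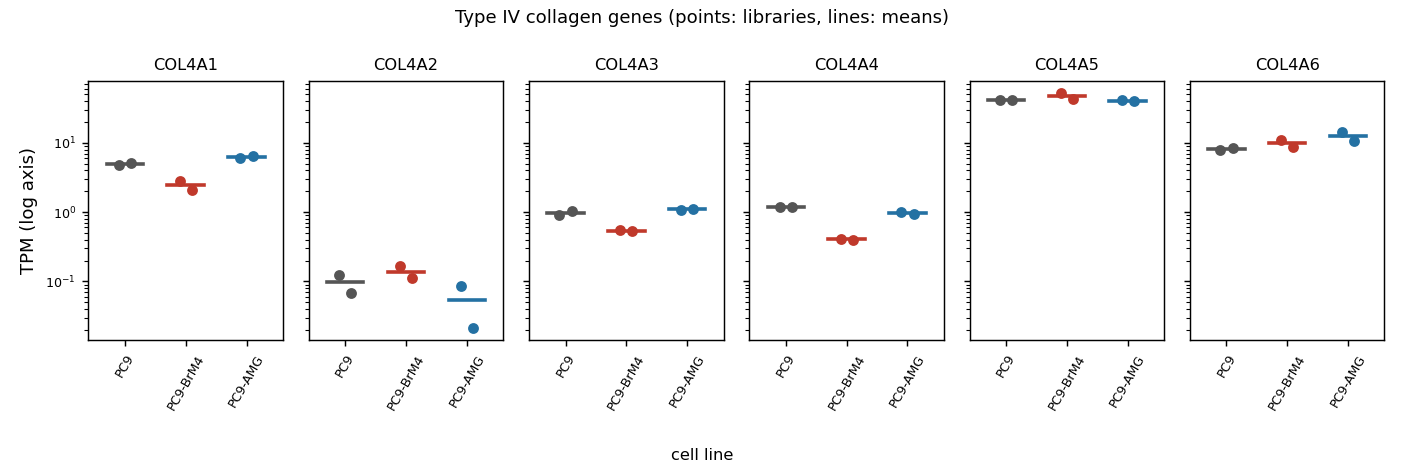
TPM (log axis) of the 6 type IV collagen genes, with points for the 2 libraries and lines for the mean of each line. COL4A2 lies at or below 0.166 TPM in every library, COL4A5 between 40.2 and 52.9 TPM, and COL4A1, COL4A3 and COL4A4 are lowest in PC9-BrM4.

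In the comparison of the second derivative, PC9-AMG, with the parent line, 4 of the 29 genes fell (COL17A1, LAMA3, LAMA4 and ITGB6) and 0 rose, which is 13.8% against 7.49% of all tested genes, of which 3.67% rose and 3.82% fell. Median centring gave 3 lower and 1 higher among the 29 genes, and 436 lower and 685 higher in place of 559 and 537 among all. The lines did not overlap for 21 of the 29 (72.4%), against 59.8% of all. The median difference was -0.196, against -0.0508 over all tested genes, and 25 of the 29 differences were negative, as were 56.9% of all. ITGB6 in PC9-AMG was 0.697 times PC9 (-0.51, SE 0.134, adjusted p = 0.0486). The ITGB6 call was kept in 6 of the 17 alternative fits. Quantile normalization, FPKM, either other pseudocount, no filter and no variance trend each lost it. Its call was lost with median centring (-0.44, adjusted p = 0.0591) and on omission of each of the 4 libraries (PC9 library 1, 0.293; PC9 library 2, 0.195; PC9-AMG library 1, 0.169; PC9-AMG library 2, 0.123). When either PC9 library or PC9-AMG library 2 was left out, 0 of the 29 genes were called by limma. As reported, 10 of the 29 had an unadjusted p under 0.05, 9 lower and 1 higher, against 25.3% of all tested genes (14.4% lower, 11% higher). Across 13713 genes the differences from PC9 fell with transcript length (Spearman -0.233). The longest transcripts of the 4 called genes had 10661 (LAMA3), 6547 (LAMA4), 5689 (COL17A1) and 4675 bases (ITGB6). Those of HSPG2 (14327), LAMA5 (11426) and ITGA1 (10757 bases) were longer, and these genes were not called as reported. The part of length in these differences was not tested. With trends of length and GC content removed, the 4 calls were kept, as were 1053 of the 1096 calls over all genes. A further 2 of the 29 genes were called, while the calls over all genes rose to 2136.

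The comparison of PC9-AMG with PC9-BrM4 tests where the derivatives differ from each other. It called 11 of the 29 genes (37.9%), 8 lower and 3 higher in PC9-AMG, against 18.6% of all tested genes, of which 12.3% were lower and 6.31% higher. Among genes with a mean of at least 10 TPM, 10 of 23 members and 21.3% of 9178 genes were called. The derivatives did not overlap for 20 of the 29 (69.0%), against 59.5% of all. The integrin subunits made up 8 of the 11 called genes and 14 of the 29 tested ones, so 57.1% of those tested were called. ITGB8 was 0.338 times its PC9-BrM4 level (-1.48, SE 0.159, adjusted p = 0.000323), ITGB6 0.521 times (-0.92, adjusted p = 0.00179), ITGB5 0.530 times (-0.91, adjusted p = 0.000337) and ITGA2 0.480 times (-1.0, adjusted p = 0.00727). The first 3 were called in all 17 alternative fits, and ITGA2 was not called without PC9-AMG library 1 (0.0719). COL4A1 was 2.53 times higher in PC9-AMG (1.07, SE 0.191, adjusted p = 0.00485) and was likewise called in all 17 fits.

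Smaller differences between the derivatives depended on the libraries and the scaling. ITGA5 (0.59, adjusted p = 0.0180) and COL17A1 (0.58, adjusted p = 0.0143) were higher in PC9-AMG. Neither was called without PC9-BrM4 library 1 (0.0586 and 0.0529), PC9-BrM4 library 2 (0.0904 and 0.0693) or PC9-AMG library 1 (0.0904 and 0.0687). ITGA6, ITGAV, ITGB1 and LAMA4 were lower in PC9-AMG by 0.46 to 0.55 (adjusted p = 0.0290, 0.0354, 0.0168 and 0.0386). With median centring, which moved the median of all tested genes from -0.131 to 0.0423, these 4 were not called (adjusted p between 0.0919 and 0.111). Without PC9-BrM4 library 1 their adjusted p was 0.143, 0.189, 0.124 and 0.166, and without PC9-AMG library 1 it was 0.140, 0.163, 0.109 and 0.0881. ITGA6, ITGAV and LAMA4 were also not called without PC9-AMG library 2 (0.0913, 0.0822 and 0.130), whereas ITGB1 was. Median centring gave 4 higher and 4 lower calls among the 29 genes, and 1606 higher and 900 lower in place of 923 and 1797 among all.

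ITGB8, ITGAV, ITGB1, ITGB6 and ITGA2 have transcripts of 37.8% to 40.2% GC, among the lowest of the 29 genes, and ITGB5 has 54.2%. Across genes, the difference of PC9-AMG from PC9-BrM4 rose weakly with GC content (Spearman 0.139) and fell with transcript length (-0.239). With both trends removed, all 11 calls were kept and 3 more were made. Over all genes, 2582 of the 2720 calls were kept and the number of calls rose to 3874.

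Genes that work with these receptors and ligands were counted from lists of the same biology. Of 26 tested focal adhesion adaptors and kinases, 4 rose and 2 fell in PC9-BrM4, and 1 rose and 0 fell in PC9-AMG. FERMT2, the kindlin that activates integrins through their beta tails, was at 12.1 TPM on average in PC9, 44.1 TPM in PC9-BrM4 and 18.2 TPM in PC9-AMG. It rose in both (1.79, adjusted p = 3.65e-05, and 0.56, adjusted p = 0.0402). The adaptor PARVB fell in PC9-BrM4 (-1.03). Of 12 other laminin or collagen receptors and hemidesmosome partners, 3 rose and 0 fell in PC9-BrM4 and 0 rose and 1 fell in PC9-AMG. CD44, a hyaluronan receptor, rose by 0.69 and the collagen receptor DDR1 by 0.56 in PC9-BrM4.

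Of 16 tested ligands of integrins outside the 43 genes, 7 rose and 5 fell in PC9-BrM4, and 1 rose and 3 fell in PC9-AMG. CTGF rose by 1.34 in PC9-BrM4 and by 0.42 in PC9-AMG. NPNT, a basement membrane ligand, was at 2.67 TPM on average in PC9-BrM4 and 0.171 TPM in PC9 (1.63), and EDIL3, a ligand of integrins with ITGAV, fell in both lines (-0.98 and -2.0). Of 10 other basement membrane genes, 3 rose and 2 fell in PC9-BrM4 and 1 rose and 3 fell in PC9-AMG. FBLN1, which binds laminin and nidogen, rose by 1.53 in PC9-BrM4, and the laminin-binding netrin NTN4 fell in both (-0.89 and -1.13). Of 14 collagen assembly and modification genes, 3 rose and 1 fell in PC9-BrM4, and 0 rose and 3 fell in PC9-AMG. The lysyl hydroxylase genes PLOD1 (0.68 in PC9-BrM4) and PLOD2 (-0.90 in PC9-AMG) were among them. The background shares of called genes given above apply to these counts too, and the differences from PC9 in both derivatives rest on the same PC9 libraries.

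Markers of the cells that a glial culture could add were also measured. GFAP and S100B, which mark astrocytes, were listed at 0 in all 6 libraries, as was MOG, which marks oligodendrocytes, whereas MBP, of the same list, was at 20.2 to 26.8 TPM. Of the 8 astrocyte markers, 2 or 3 reached 1 TPM, and they summed to between 60.7 and 65.8 TPM in PC9, between 77.5 and 84.0 TPM in PC9-BrM4, and between 74.7 and 79.9 TPM in PC9-AMG. SOX9 and ALDH1L1, which some epithelial cells also express, made up most of this. SLC1A3 was listed at 0 in PC9, at 3.44 and 2.12 TPM in PC9-BrM4 and at 0.652 and 0.361 TPM in PC9-AMG. Of the 3 astrocyte markers tested, 2 were called higher in PC9-BrM4 than in PC9, SLC1A3 (adjusted p = 0.00178) and SOX9 (0.54, adjusted p = 0.00994), and 0 in PC9-AMG by limma, where ALDH1L1 alone had an unadjusted p under 0.05 (0.00488). The fibroblast and pericyte markers LUM and PDGFRA were listed at 0, and the 8 of that list summed to between 11.2 and 21.1 TPM, most of it COL1A1. The part of other cells in the differences of the 43 genes was not tested.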

How the data were processed

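Messenger RNA was measured in 6 libraries (TruSeq Stranded mRNA, per the labels' protocols). HISAT2 2.1.0, StringTie 1.3.4d and build hg38 are named in the submitters' processing notes; the annotation and filters are not given in the sources used here. Per the file headers, the authors computed coverage per base, FPKM and TPM for each gene and library. Rows of a gene were summed (1449 genes had several, none of them a member). The deposited table of all 6 libraries held the same TPM, within 0.001, for 98.9% of genes and all 43 members. Without read counts, no counting error could be given.

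Genes reaching 1 TPM in 2 or more libraries (14627) entered 1 limma fit (3.58.1, R 4.3.3) of log2-transformed TPM, after adding 1, with 3 line means, moderated variances with a trend on level (3 residual and 6.81 prior degrees of freedom), two-sided tests and Benjamini-Hochberg adjustment over all of them. The fit was tested on simulated data. The members, context lists and tests were chosen with earlier results of these data known. Values in every library are given for members called in a comparison and for those with a mean of at least 50 TPM; further members were described after their values were seen. Up to 3 called genes per context list and comparison could be named. Transcript length and GC content come from the longest GENCODE 29 transcript of a symbol (93.8% of tested genes), and promoters from RefSeq (34 of 43 members matched).

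The alternatives tried were other scalings (median centring, quantile normalization, FPKM), other pseudocounts (0.1, 0.5), other filters (none, 5 TPM), other variance models (no trend, robust), a replicate block, a fit to the 4 libraries compared, the deposited table of all libraries, and omission of each library in turn. Removing trends with length and GC content was added after the data were seen.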

Additional observations from a re-analysis of the deposited data

Results flagged for a closer look

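For 6 of the 29 tested genes, both PC9-BrM4 libraries lay on one side of PC9 and both PC9-AMG libraries on the other, and the derivatives differed in the limma test of that difference. This is 20.7% of the 29, against 7.71% of all 14627 tested genes. ITGB8 (-1.48), ITGB6 (-0.92), ITGB5 (-0.91), ITGAV (-0.55) and ITGB1 (-0.52) were lower in PC9-AMG than in PC9-BrM4 on the log2 scale, and COL4A1 was higher (1.07). The adjusted p was 0.000323, 0.00179, 0.000337, 0.0354, 0.0168 and 0.00485 in this order. None of these genes was called against PC9 in both derivatives. For ITGB8, ITGB5 and COL4A1 only PC9-BrM4 was called against PC9, and for ITGB6 only PC9-AMG. For ITGAV and ITGB1 neither derivative was called against PC9.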

How the results depend on the processing

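Of 1071 refits of the 21 members with full values, 917 kept direction and side of the threshold, 91 lost a call, 27 gained one and 36 changed sign; the cause was not tested. Members called in PC9-AMG against PC9 fell from 4 to 0 with no filter and with no variance trend, and all genes called went to 250 and 325, and to 2136 with length and GC trends removed. In PC9-AMG against PC9-BrM4, 5 members were called with no filter and 7 with FPKM in place of 11, and 1799 genes with no filter. For PC9-BrM4 against PC9, 3653 genes were called with the trends removed. With no filter, 1675 genes and 8 members (2 higher, 6 lower) were called there, and 4 of the reported calls were kept. ITGA2, ITGA5, COL4A1 and ITGB2 lost the call (limma adjusted p = 0.0658, 0.0626, 0.0552 and 0.0562). COL4A4 and ITGB7, and ITGA4 and ITGA7, which the reported filter left out, were called lower. Leaving out 1 library gave 4 to 7 members and 892 to 1726 genes in PC9-BrM4 against PC9, 0 to 3 members and 131 to 369 genes in PC9-AMG against PC9, and 5 to 11 members and 1024 to 2886 genes between the derivatives.

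Sign changes were confined to uncalled differences. In PC9-BrM4 against PC9, median centring gave ITGA3 -0.064, LAMA5 -0.086, LAMB2 -0.058 and LAMC1 -0.018; quantile normalization ITGA3 -0.0088, LAMA5 -0.040 and LAMB2 -0.023; FPKM ITGA3 -0.0070, LAMA5 -0.029 and LAMB2 -0.00047. In PC9-AMG against PC9, ITGA5 was 0.051 with median centring, 0.046 with FPKM and 0.022 with trends removed, and ITGA2 0.060 with trends removed. Between the derivatives, LAMB1 was 0.12, 0.056 and 0.023 under the same settings. Without 1 library, the ranges in PC9-BrM4 against PC9 were -0.13 to 0.16 (LAMA5), -0.052 to 0.14 (LAMB2), -0.091 to 0.35 (ITGA6), -0.054 to 0.13 (ITGA3), -0.15 to 0.32 (LAMC1), -0.25 to 0.045 (LAMA4) and -0.28 to 0.0013 (LAMB1). In PC9-AMG against PC9 they were -0.20 to 0.16 (ITGA5), -0.17 to 0.033 (ITGA2), -0.35 to 0.0092 (ITGA3) and -0.71 to 0.017 (LAMA5), and between the derivatives -0.20 to 0.086 (LAMB1), -0.26 to 0.33 (ITGB4) and -0.46 to 0.076 (AGRN). A line left with 1 library is assumed to vary like the others.

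Over all tested genes no pairing by library number was seen. Deviations from the line means correlated at 0.0292, -0.0388 and 0.00267 across genes for the 3 pairs of lines. A correlation over all genes cannot exclude a pairing that affects only some of them. With a replicate block, 9, 4 and 12 members were called in the 3 comparisons, including 8 of 8, 4 of 4 and 11 of 11 of those reported. Coverage limits genes near 1 TPM.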
